A study of Mus musculus with 6 samples.

Results

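Voltage-gated calcium channels of the heart ventricle were followed through 9 listed subunit genes, out of 54232 genes in the counts. The list holds the gamma subunit genes *Cacng6* and *Cacng7*, the pore genes *Cacna1c*, *Cacna1d*, *Cacna1g* and *Cacna1h*, the beta subunit genes *Cacnb2* and *Cacnb3*, and the alpha2delta subunit gene *Cacna2d1*. Genes were found by symbol through their Ensembl identifiers, and all 9 had counts in each of the 6 libraries. *Cacng6* was listed for its difference between treated and untreated mice in these same libraries, and the others were set beside it with that comparison known. Their values between the groups are therefore a description, with no test. The samples were ventricles of C57BL/6J WT mice, all fed a western diet (WD), which had lasted 15 weeks when treatment began. Tributyrin, a triglyceride that releases butyrate, was needle-fed to 3 of these mice for 3 weeks at 5 g/kg body weight, on alternating blocks of days. The other 3 mice received vehicle, which the labels call PBS. A group on normal chow was not analysed here, and the labels give neither the age nor the sex of these mice. In all 6 libraries the Y-linked gene *Ddx3y* was between 68.4 and 85.5 CPM (counts scaled to the size of the library) and *Xist* was at most 0.237 CPM.

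Voltage-gated calcium channels open when the membrane depolarises and let calcium into the cell. The alpha1 subunit forms the pore and gives the channel its type. In ventricular muscle the L-type current, carried mainly by the *Cacna1c* pore, triggers calcium release from the sarcoplasmic reticulum and so couples excitation to contraction, while T-type pores (*Cacna1g*, *Cacna1h*) open at more negative voltages and are known from pacemaker and developing heart muscle. Beta subunits bind the pore inside the cell and help bring it to the membrane, and alpha2delta subunits sit outside the membrane and raise the current. Gamma subunits span the membrane. The gamma family includes proteins that act on calcium channels and others that accompany AMPA receptors in neurons, and the protein of *Cacng6* can lower calcium current when it is expressed with pore subunits.

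The libraries held between 20369746 and 32734485 counts. Mitochondrial transcripts took 23.6% to 26.5% of the counts with vehicle and 25.9% to 28.8% with Tributyrin, and these ranges overlapped. The tissue label was checked with 6 ventricular marker genes, whose summed level was between 48943 and 53230 CPM in every library. The 7 atrial markers summed to 200.6 and 191.2 CPM in vehicle mice 1 and 2, against 33.6 to 68.9 CPM in the other 4 mice. Both vehicle libraries thus stood apart in this sum. *Myl4*, *Myl7*, *Sln*, *Mybphl* and *Dkk3* were highest in these mice, and *Nppa* was highest in vehicle mouse 3. *Bmp10* had at most 1 count in any library. The skeletal muscle markers summed to at most 3.41 CPM, and skeletal muscle is another tissue known to express *Cacng6*.

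*Cacng6* (ENSMUSG00000078815) is a protein-coding gene on the plus strand at chr7:3424195-3435667 (GRCm38, the assembly also called mm10), and no other annotated gene overlaps it. The RefSeq promoter of this gene, from 250 bases before its start to 50 bases after it, is shown because *Cacng6* is the gene on which the comparison turns. It lies on the plus strand of GRCm38.p6 at chr7:3424412-3424711, and capitals mark the 2 matches to CANNTG, the E-box core.
*Cacng6* promoter: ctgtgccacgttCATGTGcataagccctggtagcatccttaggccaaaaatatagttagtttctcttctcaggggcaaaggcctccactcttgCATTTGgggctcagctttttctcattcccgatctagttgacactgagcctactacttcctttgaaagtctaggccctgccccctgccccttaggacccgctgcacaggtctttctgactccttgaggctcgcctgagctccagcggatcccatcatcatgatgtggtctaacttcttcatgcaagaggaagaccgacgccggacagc
CANNTG reads as its own complement, so both strands are covered, and 72.3% of the 32851 RefSeq mouse promoters of this length contain it. The window holds no match on either strand to TATAAA, which 13.6% of promoters contain. These matches describe letters only, since nothing in these libraries measures the promoter. The RefSeq start lies 467 bases inside the start annotated by GENCODE.

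*Cacng6* had the larger mean in the Tributyrin mice. The vehicle mice had 144.5, 74.4 and 72.1 normalized counts (counts divided by the size factor of each library), and the Tributyrin mice had 218.8, 224.8 and 175.5. All 3 Tributyrin mice were above all 3 vehicle mice, and vehicle mouse 1 lay nearest to them. The group means were 97.0 ± 41.1 (SD, n = 3) and 206.4 ± 26.9 (SD, n = 3) normalized counts, and the fitted log2 fold change, Tributyrin over vehicle, was 1.10 (SE 0.24). The raw counts behind these values were between 58 and 246, so counting alone gives a coefficient of variation of 10.8% with vehicle and 7.0% with Tributyrin. The spread between mice was larger, at 42.4% and 13.03%, and vehicle mouse 1 sets most of the first. Without vehicle mouse 1 the log2 fold change was 1.50, the highest when any single mouse was left out, and the lowest was 0.92, without vehicle mouse 2. In tissue RNA, fewer cells of a type and less RNA per cell cannot be told apart.

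*Cacng7* (ENSMUSG00000069806, chr7:3332955-3368221) is the neighbouring gamma gene and encodes a relative best known from neurons. Its normalized counts were 135.1, 152.0 and 159.0 with vehicle and 108.5, 135.2 and 107.8 with Tributyrin. Tributyrin mouse 2 lay within the vehicle range by a margin of less than 1 normalized count, so the groups overlapped. The log2 fold change was −0.34 (SE 0.15), opposite in sign to that of *Cacng6*. *Cacng6* made up 54.0%, 36.2% and 35.6% of the summed gamma levels per exonic length with vehicle, and 71.2%, 66.6% and 65.8% with Tributyrin. The larger gamma transcript was thus *Cacng7* in vehicle mice 2 and 3, and *Cacng6* in vehicle mouse 1 and in all 3 Tributyrin mice.

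**Figure D1:**
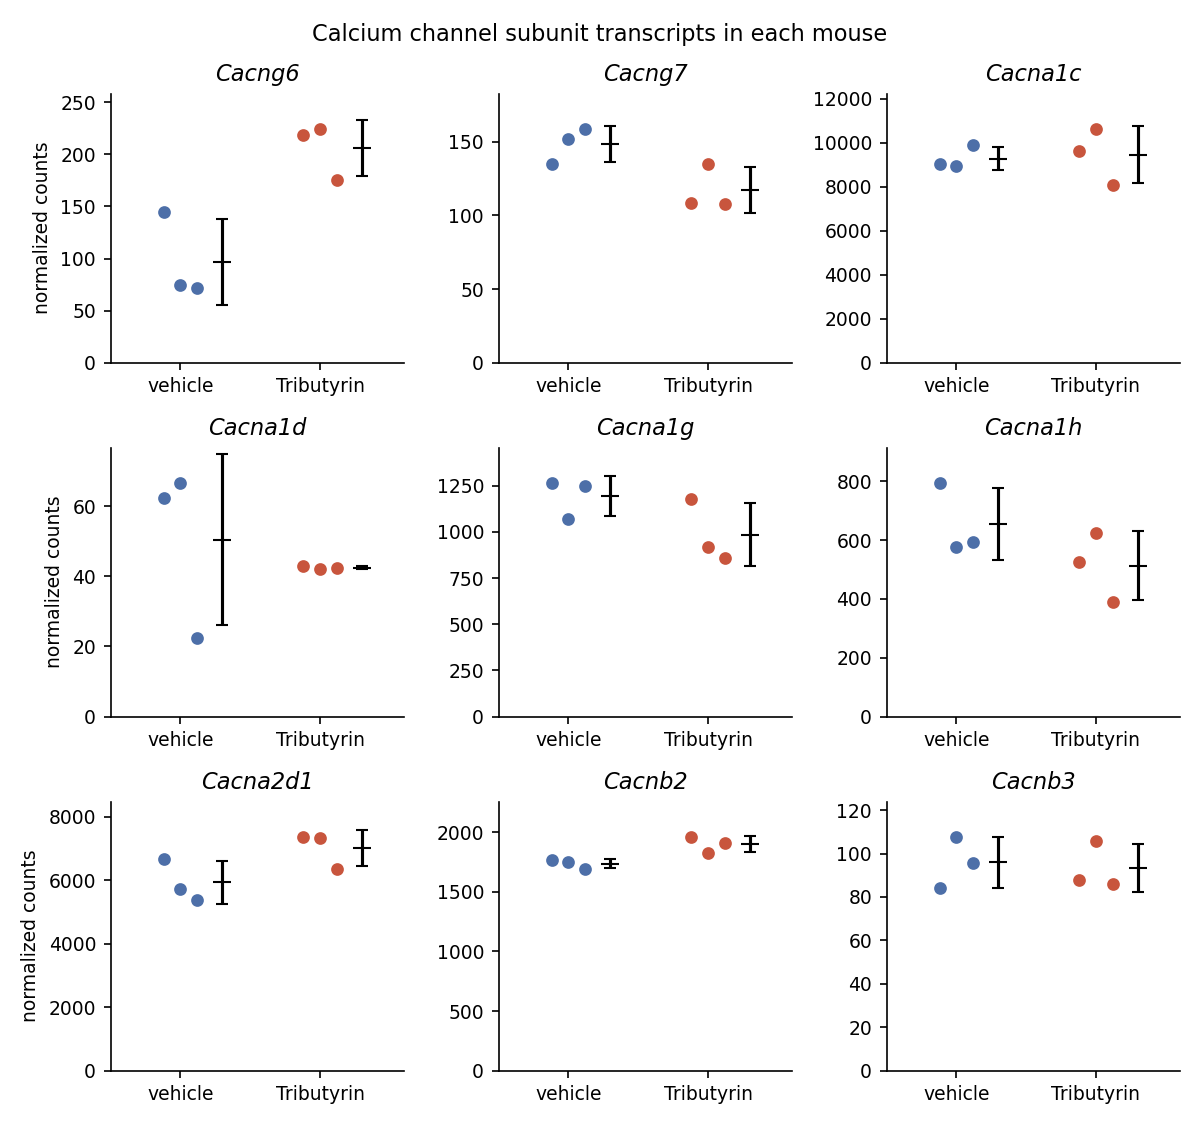
Normalized counts of the 9 listed subunit genes in each of 3 vehicle (blue) and 3 Tributyrin (red) mice, with a bar for the mean ± SD of each group and every axis starting at 0. *Cacng6* and *Cacnb2* show no overlap between the groups, while the other 7 genes overlap, and under scaling by library size alone *Cacnb2* overlaps too. Of all genes tested 8.91% show no overlap in either direction, and *Cacng6* was listed for its difference.

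Among the pores, *Cacna1c* (ENSMUSG00000051331, chr6:118587240-119196418), which encodes the main L-type pore of ventricular muscle, was nearly level between the groups. Its normalized counts were 9018.9, 8944.4 and 9881.8 with vehicle and 9623.0, 10641.9 and 8067.7 with Tributyrin. The highest and the lowest of the 6 mice were both Tributyrin mice. The log2 fold change was 0.03 (SE 0.10), and its sign turned when either vehicle mouse 2 (−0.000226) or Tributyrin mouse 2 (−0.07) was left out, or when libraries were scaled by size alone (−0.04).

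*Cacna1d* (ENSMUSG00000015968, chr14:30039939-30491455) encodes the L-type pore known from atria and the sinoatrial node. It had 62.4, 66.7 and 22.4 normalized counts with vehicle and 43.0, 42.0 and 42.4 with Tributyrin. Vehicle mice 1 and 2, the mice with high atrial markers, were the highest, vehicle mouse 3 was the lowest, and the Tributyrin mice lay between them. The log2 fold change was −0.28 (SE 0.34), and without vehicle mice 1 and 2 it was 0.92. The part of atrial transcripts in this value was not tested. The Tributyrin mice differed by less (a coefficient of variation of 1.2%) than the 15.3% that counting alone gives at this depth, so their SD understates the error. A stretch of 589 exonic bases of *Cacna1d* is shared with *Chdh* on the opposite strand, which had at most 16 counts.

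Both T-type pores had lower means with Tributyrin, with overlapping groups. *Cacna1g* (ENSMUSG00000020866, chr11:94408391-94474198) had 1267.0, 1072.4 and 1248.6 normalized counts with vehicle and 1178.2, 917.4 and 860.3 with Tributyrin. Tributyrin mouse 1 lay within the vehicle range and the other two lay below it, for a log2 fold change of −0.28 (SE 0.12). *Cacna1h* (ENSMUSG00000024112, chr17:25374285-25433783) had 795.1, 575.4 and 592.6 normalized counts with vehicle and 524.6, 623.1 and 391.2 with Tributyrin. Its highest value was in vehicle mouse 1. Its log2 fold change of −0.34 (SE 0.17) was −0.18 without that mouse or without Tributyrin mouse 3, and −0.51 without Tributyrin mouse 2. Without vehicle mice 1 and 2, the mice with high atrial markers, the log2 fold change was −0.21 for *Cacna1h* and −0.34 for *Cacna1g*.

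Expressed as shares of the summed pore levels per exonic length, L-type pores (*Cacna1c*, *Cacna1d*, *Cacna1f*, *Cacna1s*) took 70.1%, 74.5% and 73.3% with vehicle and 75.1%, 78.2% and 77.5% with Tributyrin. T-type pores (*Cacna1g*, *Cacna1h*, *Cacna1i*) took 28.5%, 24.4% and 25.2% with vehicle and 23.8%, 20.7% and 21.2% with Tributyrin. Neither share overlapped between the groups, also when levels were divided by coding length, though vehicle mouse 2 and Tributyrin mouse 1 differed by less than 1 percentage point. The other pores took at most 1.53%, so these shares are nearly complements and show a single separation. Among single genes 8.91% of all genes tested showed no overlap in either direction, and no such rate was worked out for shares. Nothing is read from this separation. The share of *Cacna1c* alone overlapped between the groups by either length. Per exonic length it was 58.7%, 62.5% and 63.8% with vehicle and 63.6%, 67.0% and 64.5% with Tributyrin. Within the T-type pores the division was alike, with *Cacna1g* at 63.9% ± 3.23 in vehicle mice and 64.9% ± 5.56 in Tributyrin mice (SD, n = 3 each).

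The beta subunit gene *Cacnb2* (ENSMUSG00000057914, chr2:14603088-14987908), whose protein is the main partner of the cardiac L-type pore, had 1769.1, 1750.1 and 1694.6 normalized counts with vehicle. With Tributyrin it had 1963.7, 1828.3 and 1906.5. In these values all 3 Tributyrin mice were above all 3 vehicle mice, by a small margin, and the log2 fold change was 0.13 (SE 0.07). Under scaling by library size alone the log2 fold change was 0.06 and the groups overlapped, with Tributyrin mouse 3, at 68.3 CPM, below vehicle mouse 2, at 68.9 CPM. *Cacnb3* (ENSMUSG00000003352, chr15:98630840-98644529), a beta subunit gene used widely outside muscle, had 84.2, 107.8 and 95.7 normalized counts with vehicle and 87.9, 106.0 and 86.0 with Tributyrin. Here the groups covered nearly the same range, with a log2 fold change of −0.04 (SE 0.17) that turned positive, to 0.06 at most, when vehicle mouse 2, Tributyrin mouse 1 or Tributyrin mouse 3 was left out.

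*Cacna2d1* (ENSMUSG00000040118, chr5:15934691-16374511) encodes the main alpha2delta subunit of heart muscle. It had 6679.2, 5741.9 and 5383.2 normalized counts with vehicle and 7378.8, 7334.3 and 6368.8 with Tributyrin. Tributyrin mice 1 and 2 were the highest, whereas Tributyrin mouse 3 lay below vehicle mouse 1, so the groups overlapped. The log2 fold change was 0.24 (SE 0.10).

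Across the whole table, the quasi-likelihood test of edgeR, adjusted by Benjamini and Hochberg, called 0 of the 9 listed genes at a false discovery rate (FDR) of 10%, where it called 0% of the 14133 genes tested. DESeq2, fitted on the 25581 genes with a count, called 1 listed gene, *Cacng6*, of 11 in all. On the same 14133 genes as edgeR, limma-voom called 0. At an unadjusted p under 0.05 each of the 3 tools called 4 listed genes, 2 higher (*Cacng6*, *Cacna2d1*) and 2 lower (*Cacna1g*, *Cacng7*) by edgeR. Of all genes tested, edgeR called 1.97% higher and 2.28% lower at this level, 600 genes (4.25%) together. Of the same genes limma-voom called 605, and DESeq2 called 460 on its larger set. The groups did not overlap for 2 listed genes with Tributyrin higher, as for 4.26% of all genes, and for 0 with Tributyrin lower, as for 4.65% (8.91% in either direction). Because *Cacng6* and its companions were chosen on this contrast, nothing is read from these counts. The 8 listed genes other than *Cacng6* had a median log2 fold change of −0.16, with 3 positive and 5 negative, and the median over all genes tested was −0.00129.

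**Figure D2:**
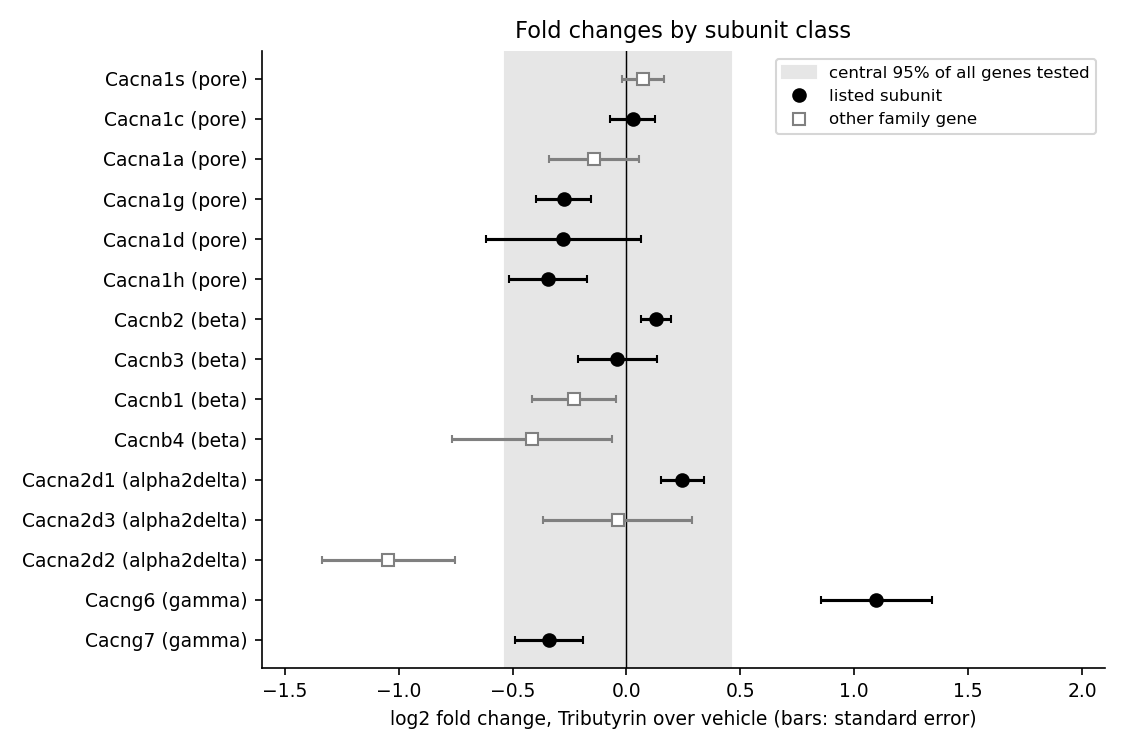
Log2 fold change, Tributyrin over vehicle, of the 15 voltage-gated calcium channel genes tested, grouped by subunit class, with bars of 1 standard error. Listed genes are filled circles and other family genes are open squares, and the grey band spans the central 95% of all genes tested (−0.53 to 0.46). *Cacng6* (1.10) and *Cacna2d2* (−1.05) lie outside the band, on opposite sides.

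Levels were compared between genes as CPM per kilobase of exonic length, over all 6 mice. *Cacna2d1* had the highest level, at 19.9 ± 2.52 (SD, n = 6), followed by *Cacna1c* at 16.8 ± 1.63 and *Cacnb2* at 5.23 ± 0.29. These are the alpha2delta, pore and beta subunits of the ventricular L-type channel. The ranges of *Cacna2d1* and *Cacna1c* overlapped, and in vehicle mouse 3 *Cacna1c* was the higher, at 17.8 against 16.5. *Cacna1c* was separated from *Cacnb2* by ranges that did not overlap. *Cacnb2* in turn did not overlap with *Cacna1g*, at 4.09 ± 0.645. *Cacng6* stood next, at 2.92 ± 1.30, and its range over mice, 1.39 to 4.34, overlapped with *Cacna1g* above and *Cacna1s* below. This place in the order pools groups that differ: by group means *Cacng6* was in rank 8 with vehicle, at 1.87 and below *Cacna1s*, *Cacna1h* and *Cacng7*, and in rank 4 with Tributyrin, at 3.97 and above *Cacna1g*. *Cacna1h* was at 2.27 ± 0.515, *Cacng7* at 2.07 ± 0.334 and *Cacnb3* at 0.897 ± 0.099. *Cacna1d* had the lowest level of the listed genes, at 0.14 ± 0.048. Of the 14 pairs of neighbours in the order of 15 genes, 10 overlapped, and the highest level was 169-fold above the lowest. Exonic length counts every annotated exon. With the longest coding length instead, and over all 6 mice, *Cacng6* moved from rank 5 to rank 4 and *Cacng7* from rank 8 to rank 5, and the share of *Cacna1c* among the pores went from 63.4% to 80.2%.

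**Figure D3:**
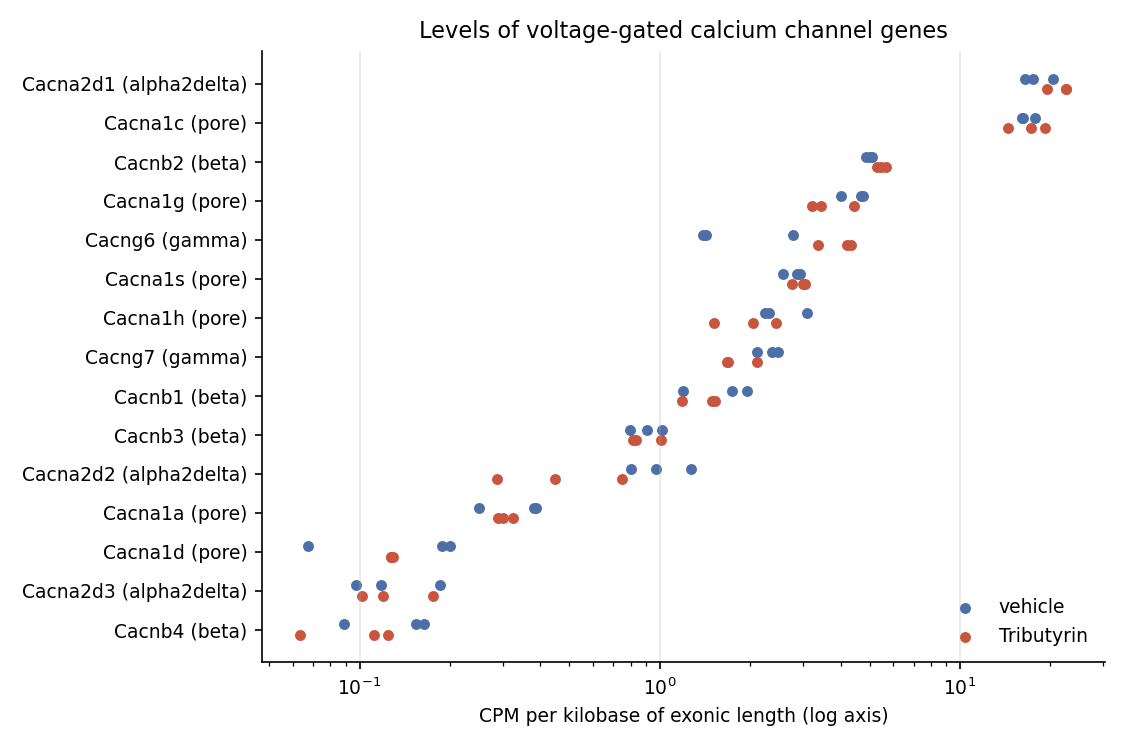
Level of each tested voltage-gated calcium channel gene in CPM per kilobase of exonic length, on a log axis, with 1 point per vehicle (blue) or Tributyrin (red) mouse and genes ordered by their mean over 6 mice. *Cacna2d1* and *Cacna1c* stand above the rest, and the *Cacng6* points are split between the groups, at means of 1.87 with vehicle and 3.97 with Tributyrin.

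The rest of the family comprised 17 genes, of which 6 passed the filter on low counts. At an FDR of 10% none of the 6 passed in edgeR, DESeq2 or limma-voom (0 in each), and 1 had an unadjusted p under 0.05, beside 4.25% of all genes tested. That gene was *Cacna2d2* (ENSMUSG00000010066, chr9:107399612-107529343), another alpha2delta subunit gene, best known from neurons. It had 202.7, 266.7 and 167.7 normalized counts with vehicle and 59.8, 155.3 and 94.1 with Tributyrin. All 3 Tributyrin mice were below all 3 vehicle mice, a separation that 8.91% of all genes tested showed in either direction, and the highest of all was vehicle mouse 2. The log2 fold change was −1.05 (SE 0.29, adjusted p = 0.999 by edgeR's quasi-likelihood test), and across the alternatives the adjusted p was between 9.51e-08, without the filter on low counts, and 1.00. Without vehicle mice 1 and 2, the mice with high atrial markers, it was −0.70. *Cacna2d2* made up 5.27% ± 1.24 of the summed alpha2delta levels in vehicle mice and 2.22% ± 0.965 in Tributyrin mice (SD, n = 3 each), and *Cacna2d1* made up nearly all the rest.

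The remaining tested genes of the family all overlapped between the groups. *Cacna1s*, the L-type pore gene of skeletal muscle, had 443.5 to 504.1 normalized counts with vehicle and 477.2 to 523.6 with Tributyrin, for a log2 fold change of 0.07 (SE 0.09). The log2 fold changes were −0.14 (SE 0.20) for *Cacna1a*, a pore gene of nerve terminals, and −0.23 (SE 0.18) and −0.42 (SE 0.35) for the beta subunit genes *Cacnb1* and *Cacnb4*. For *Cacna2d3* it was −0.04 (SE 0.33), and without vehicle mouse 2 it was 0.30. With 1 mouse left out these values were −0.33 to −0.02 for *Cacna1a*, −0.40 to −0.07 for *Cacnb1* and −0.67 to −0.16 for *Cacnb4*, the extremes coming without vehicle mouse 2 or 1, vehicle mouse 3 or 2, and vehicle mouse 2 or Tributyrin mouse 1. Without vehicle mice 1 and 2, *Cacnb1* was at 0.23. Over the 6 tested genes 1 value was positive and 5 were negative, with a median of −0.19. The 11 genes that did not pass the filter had at most 8 counts in any library. They were the pore genes *Cacna1b*, *Cacna1e*, *Cacna1f* and *Cacna1i*, the alpha2delta gene *Cacna2d4*, and the gamma genes *Cacng1*, *Cacng2*, *Cacng3*, *Cacng4*, *Cacng5* and *Cacng8*. *Cacng3* and *Cacng8* had 0 counts in all 6 libraries, which allows up to 0.0187 CPM for each, counting error only. *Cacng6* and *Cacng7* were the gamma genes that passed the filter in these ventricles.

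Genes that regulate these channels or handle calcium with them were taken from a list of 23, of which 19 were tested. At an FDR of 10% the count was 0 in edgeR, DESeq2 and limma-voom, and 2 of the 19 had an unadjusted p under 0.05, both higher, beside 4.25% of all genes tested (1.97% higher). The median log2 fold change was −0.000947, with 9 positive and 10 negative. The highest values were those of *Rrad*, a small GTPase that holds back L-type current, at 0.28 (SE 0.12), *Pln*, the phospholamban gene, at 0.24 (SE 0.08), and *Calm2*, a calmodulin gene, at 0.10 (SE 0.09). The lowest were those of the anchoring protein gene *Akap5* at −0.21 (SE 0.31), of *Rem1*, a relative of *Rrad*, at −0.19 (SE 0.27), and of *Casq2*, the cardiac calsequestrin gene, at −0.12 (SE 0.10). Every one of these 6 had an adjusted p of 0.999 in edgeR's test. Of the 19 tested genes 1, *Pln*, showed no overlap between the groups, beside 8.91% of all genes tested, and *Rrad* had a log2 fold change of 0.07 without vehicle mice 1 and 2.

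Atrial markers had a lower mean with Tributyrin, so their values are set beside the channel genes. The 7 markers summed to 152.6 ± 75.1 CPM in vehicle mice and 53.3 ± 17.97 CPM in Tributyrin mice (SD, n = 3 each). The 3rd vehicle mouse, at 66.0 CPM, lay within the range of the Tributyrin mice. The markers did not all follow this order: *Nppa*, at 1046 normalized counts, was higher in vehicle mouse 3 than in any other mouse, and *Dkk3*, at 320.5, was higher there than in all 3 Tributyrin mice. In the two-sided exact permutation test p was 0.2 (0.771 after adjustment over 9 marker lists), and 3 mice against 3 give no p under 0.1. All 6 tested atrial markers had negative log2 fold changes, with a median of −1.90. The log2 fold change of *Cacng6* was 1.52 against vehicle mouse 3 alone, a fit that assumes this mouse to vary like the Tributyrin mice. The conduction, ventricular, smooth muscle, skeletal muscle, neuron, Schwann cell, fibroblast and endothelial lists had p between 0.2 and 1 (0.771 to 1 after adjustment) in the same exact permutation test, and under scaling by library size alone the ventricular and conduction lists, both lower with Tributyrin, had p = 0.1 (0.45 after adjustment) by exact permutation. All 5 smooth muscle markers had positive log2 fold changes, with p = 0.5 for their sum (0.771 after adjustment) by exact permutation. The values of *Acta2* (0.11, SE 0.28), *Tagln* (0.08, SE 0.37) and *Smtn* (0.04, SE 0.07) lay within their standard errors. *Myh11*, at 0.59 (SE 0.17), did not overlap between the groups, whereas *Cnn1*, at 0.71 (SE 0.26), did. The fibroblast marker *Lum*, at −0.31 (SE 0.08), did not overlap either. Nor did *Tnni3* (0.21, SE 0.08), *S100b* (0.28, SE 0.26) and *Dkk3* (−1.47, SE 0.40), beside 8.91% of all genes tested. Tested were 6 ventricular, 6 atrial, 5 conduction, 5 smooth muscle, 4 fibroblast, 3 Schwann cell, 3 endothelial, 2 neuron and 2 skeletal muscle markers. These non-overlapping markers had an adjusted p of 0.999 in edgeR's test, and were picked out after their values were seen. The part of these transcripts in the values of *Cacng6* and *Cacna2d2* was not tested.

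**Figure D4:**
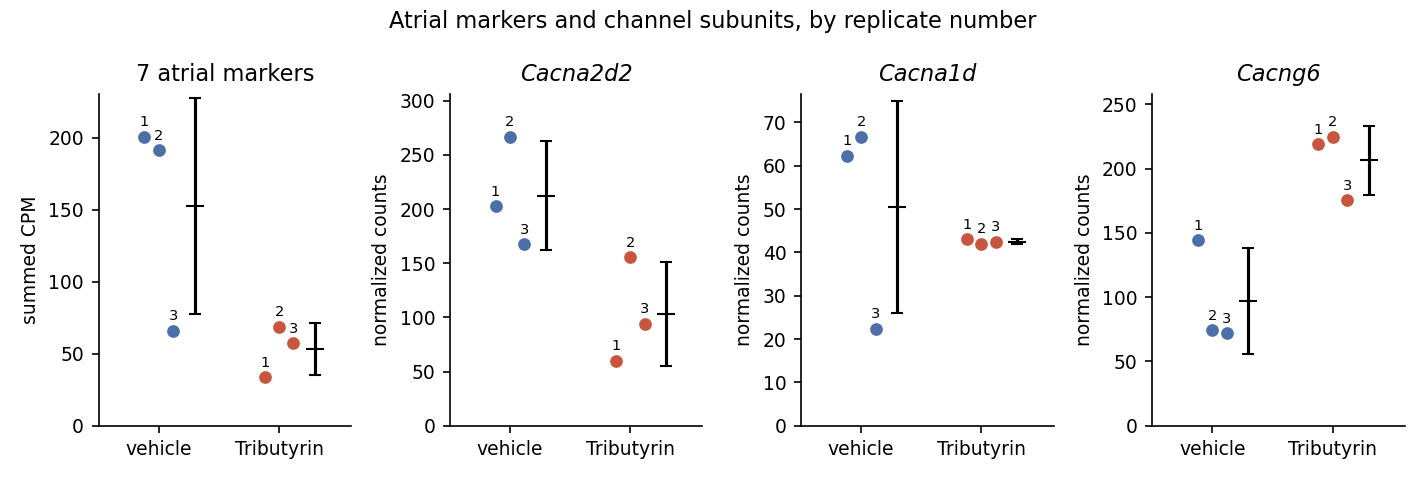
Summed level of 7 atrial markers (CPM) and normalized counts of *Cacna2d2*, *Cacna1d* and *Cacng6* in each mouse, labelled by replicate number, with a bar for the mean ± SD of each group. Vehicle mice 1 and 2 are high in the summed atrial markers and in *Cacna1d*, vehicle mouse 3 is low in both, and *Cacng6* is low in vehicle mice 2 and 3. *Cacna2d2* is also highest in vehicle mice 1 and 2, but in vehicle mouse 3 it stays above every Tributyrin mouse. Among the Tributyrin mice, *Cacna2d2* and the atrial sum are both highest in mouse 2 and lowest in mouse 1.

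The genes around *Cacng6* were compared to see how far its difference extended along the chromosome. *Cacng7*, *Cacng8* and *Cacng6* lie in a row on the plus strand of chromosome 7, and 55.974 kb separate the end of *Cacng7* from the start of *Cacng6*. Within 200 kb on either side there were 10 other protein-coding genes, of which 7 were tested. Their log2 fold changes were between −0.34 (*Cacng7*) and 0.19 (*Tfpt*), and the groups overlapped for all 7. Only 8.91% of all genes tested showed no overlap, so nothing about this region is read from that count. *Cacng8*, between the other two gamma genes and only 8.55 kb before *Cacng6*, had 0 counts, and *Nlrp12* and *Tarm1*, the other untested genes, had at most 1 count in a library. On the far side, *Oscar*, *Ndufa3*, *Tfpt* and *Prpf31* begin 174 to 194 kb after *Cacng6*, with log2 fold changes of −0.24 (SE 0.36), 0.14 (SE 0.08), 0.19 (SE 0.13) and 0.06 (SE 0.10).

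**Figure D5:**
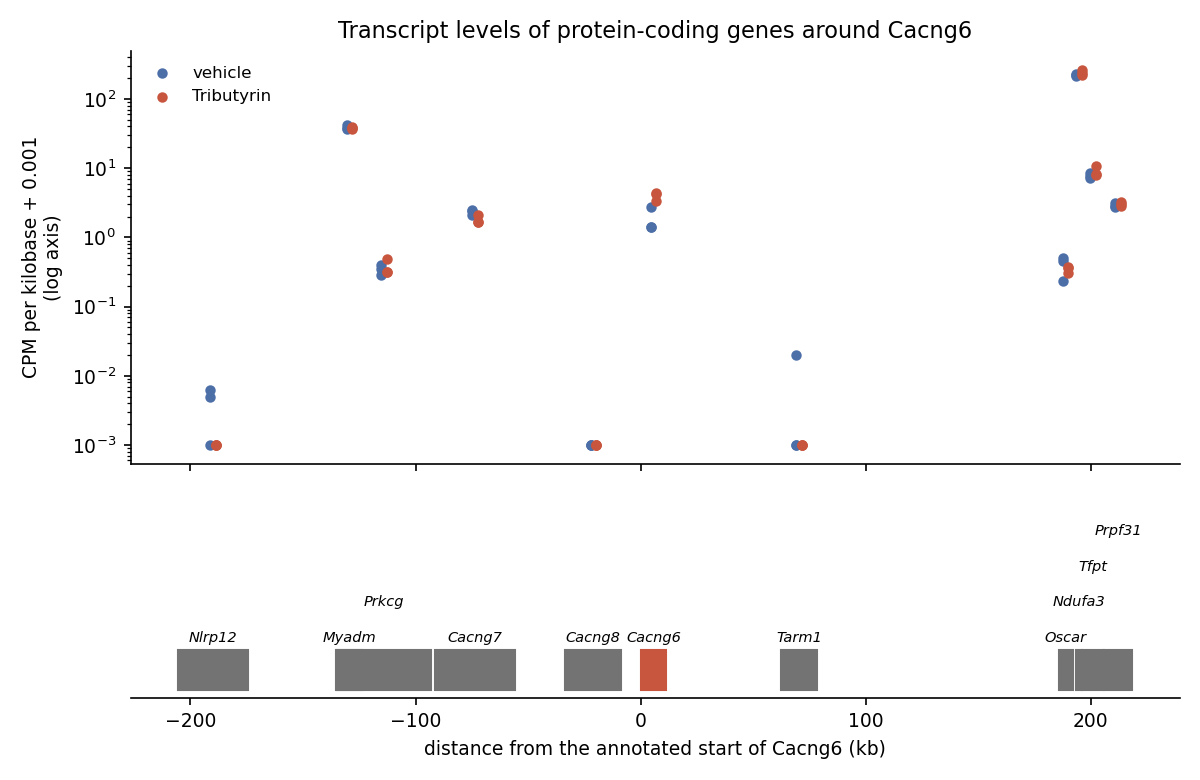
Level of the protein-coding genes around *Cacng6* in each vehicle (blue) and Tributyrin (red) mouse, in CPM per kilobase plus 0.001 on a log axis, by distance in kilobases from the annotated start of *Cacng6*, with gene extents drawn below to the same scale. Points at 0.001 are counts of 0, as for *Cacng8* in all mice, and *Cacng6* is the gene whose groups separate.

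The genes most like *Cacng6* across the 6 libraries were ranked by Pearson's r of log2 CPM among 14132 genes. They were *Rftn2* (r = 0.988), *Tbl1x* (0.980), *Lrrc32* (0.975), *Acaa2* (0.974) and *Gjc3* (0.969, on only 4 to 16 counts). The group difference enters these values, so r was also taken on deviations from the group means, where the leading genes were *Fbl* (0.997), *Sugp2* (0.996), *Rftn2* (0.992), *Nr1h3* (0.989) and *Chl1* (0.987). *Rftn2*, which encodes a raftlin, was the gene present in both rankings. Among the listed genes *Cacna2d1* followed *Cacng6* most closely, at 0.95 over the 6 libraries and 0.92 on the deviations, whereas *Cacnb2* went from 0.84 to 0.33 and *Cacng7* from −0.79 to −0.32. *Cacna1h* went the other way, from −0.17 over the 6 libraries to 0.82 on the deviations. With 6 points and this many genes such values are a description only, and the points share library depth and scaling. For *Cacng6* vehicle mouse 1 lay furthest from its group mean, at 144.5 normalized counts against 74.4 and 72.1. That mouse therefore weighs most in r on the deviations.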

How the data were processed

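Ventricle RNA of 3 vehicle and 3 Tributyrin mice was sequenced as stranded, single-end mRNA libraries. The authors deposited raw counts of reads per Ensembl gene, without normalization. The submitters' processing notes name cutadapt 1.13, STAR, HTSeq 0.6.1p1, DESeq2 1.14.1 and mm10. Strand setting and annotation release were not given in the sources used here. Groups came from the labels, which number the samples, and p-values measure the spread between these libraries.

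Symbols, positions and lengths came from GENCODE M21 (GRCm38), where 54079 of 54232 identifiers matched, and the promoter came from RefSeq. All 6 libraries entered edgeR 4.0.16 (quasi-likelihood test, TMM scaling, filterByExpr at 10 counts minimum and 15 in total, Benjamini-Hochberg adjustment, FDR of 10%, no covariate) in R 4.3.3, and tables were made in Python 3.11.15. The standard error is the size of the log2 fold change divided by the root of F. Normalized counts were divided by DESeq2 size factors, and levels are TMM-scaled CPM per kilobase. For r, log2 CPM had a prior count of 2. Library pairs differed beyond sampling noise (chi-square per degree of freedom 6.67 to 28.2). The steps were tested on simulated data.

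Named were all listed genes, other family genes with counts, the 3 highest and 3 lowest regulators or partners, the 5 genes most like *Cacng6* by each measure, and genes within 200 kb. Alternatives were other scalings and filters, DESeq2 1.42.0, limma-voom (limma 3.58.1), a block for the replicate number, and the omission of each mouse in turn. Coding length from GENCODE and leaving out vehicle mice 1 and 2 together were chosen after seeing the data. The members and lists were chosen with earlier results of these data known.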

Additional observations from a re-analysis of the deposited data

How the results depend on the processing

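*Cacng6* was listed for its difference in these libraries, so its values across the alternatives show size only. Every Tributyrin mouse lay above every vehicle mouse, so leaving out mice could not turn its direction. Its log2 fold change was 0.92 to 1.50 with 1 mouse left out, and 1.52 without vehicle mice 1 and 2. Under the other settings it was 1.03 (library size alone) to 1.18 (limma-voom). Without the filter on low counts 167 genes passed an FDR of 10%, among them 1 listed gene (*Cacng6*) and 1 other family gene (*Cacna2d2*). With DESeq2, also fitted without that filter, 11 genes passed, of which 1 was listed (*Cacng6*). The cause was not tested. With 1 mouse left out 0 to 3 genes passed, and 0 to 1 listed genes (*Cacng6*, without vehicle mouse 1). Calls among the regulators stayed at 0 in each setting. *Cacna1c* was −0.043 under library size alone, −0.070 to 0.13 with 1 mouse left out and −0.068 without vehicle mice 1 and 2. *Cacna1d* was −0.60 to −0.02 with 1 mouse left out and 0.92 without vehicle mice 1 and 2, and *Cacnb3* was −0.15 to 0.06. The values that turned for *Cacna1c* were −0.000226 (without vehicle mouse 2) and −0.070 (without Tributyrin mouse 2), and for *Cacnb3* 0.059 (without vehicle mouse 2), 0.00828 (without Tributyrin mouse 1) and 0.017 (without Tributyrin mouse 3). Scaling by library size alone moved the median of all genes to −0.07 and *Cacnb2* to 0.056. With coding length the share of *Cacna1c* among the pores was 80.2%. The planned coding length from RefSeq proteins was not run.

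With the replicate number as a block, 2 genes passed an FDR of 10% and 0 listed genes, and *Cacng6* was at 1.14. Samples that share a number had correlations of 0.21, 0.04 and 0.01 in their deviations from the group means. Of 6 libraries, 4 correlated best with their own number in the other group. With so few mice this check could not decide whether the numbers mark pairs. Depth limits *Cacna1d*, with 18 to 86 counts, and the 11 family genes with at most 8.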
